A study of Arabidopsis thaliana with 6 samples.

Results

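Cysteine-rich receptor-like kinases (CRKs) are a family of plant cell-surface kinases, and 41 genes of the family, CRK1 to CRK42 without CRK35, were followed among the 33602 genes of the deposited expression table. They were chosen by locus identifier, from the family's published numbering and not from measured values. Of the 41, 38 carry the same CRK number as symbol in the TAIR10.1 annotation; CRK1, CRK9 and CRK17 are listed there as RKF2, EP1 and EMB1290. RNA was taken from whole seedlings of Arabidopsis thaliana, Columbia (Col) ecotype, that grew on plates for 12 days after 2 days of cold. Seedlings of the Glu group had 5 mM glutamate as the sole nitrogen source, and seedlings of the NH4NO3 group had 5 mM ammonium nitrate. Both media held 1/2 MS salts without nitrogen and 0.5% sucrose. Days were 16 h of light and 8 h of dark, at 22 °C, for both groups. Each group had 3 libraries. Glutamate supplied 5 mM nitrogen and ammonium nitrate 10 mM, so the form and the amount of nitrogen cannot be told apart.

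A CRK carries extracellular DUF26 domains with conserved cysteines, a membrane span and a cytoplasmic serine/threonine kinase. CRKs are placed among the receptors and co-receptors that sense microbes and reactive oxygen at the cell surface, and many CRK transcripts are known to be induced by pathogens, salicylic acid and ozone. In the TAIR10.1 annotation 20 of the 41 genes, CRK5 to CRK24 (AT4G23130 to AT4G23320), lie in 1 tandem array of 74.2 kb on chromosome 4. Smaller groups on chromosome 4 are CRK36 to CRK40 (AT4G04490 to AT4G04570), CRK30 to CRK34 (AT4G11460 to AT4G11530) and CRK27 to CRK29 (AT4G21230 to AT4G21410).

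Levels are RPKM, read counts per kilobase of gene corrected for library size, as scaled by the authors, and means carry the SD over 3 libraries. The libraries held 49688724 to 63424574 reads in genes on Glu and 49520237 to 51409315 on NH4NO3, as recovered from the deposited values. A gene of 1 kb with no read could be at up to 0.0455 to 0.0633 RPKM, taken as 3 reads. More genes had 2 reads than 1 in each library, so reads may not be independent molecules, and this limit covers counting error only. The limma test ran on log2(RPKM + 1) for genes that averaged 1 RPKM or more across all 6 libraries, and p-values were adjusted over all 20032 tested genes by the Benjamini-Hochberg method with a threshold of 0.05. The labels do not say whether each library had its own culture; the spread behind the p-values is that of these samples and may be technical. Of all tested genes 71.8% passed.

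Most of the family was higher on Glu. Of the 41 members 36 were tested, and 28 rose, 7 fell and 1, CRK41, did not pass. Among all tested genes 35.0% rose and 36.8% fell. The median log2 fold change, Glu over NH4NO3, was 1.17 over the 36 members and -0.02 over all tested genes. At least a 2-fold change on the log2(RPKM + 1) scale was called for 19 members higher and 2 lower, against 9.52% and 5.54% of all tested genes. The 3 libraries of each group did not overlap in 28 members higher on Glu and 7 lower, against 36.9% and 39.2% of all tested genes. With library totals made equal, 29 members rose and 7 fell, while the share of rises among all called genes was 58.5%, against 48.7% on the authors' scale.

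Part of this count follows from the filter. Of the 36 tested members 11 were under 1 RPKM on NH4NO3, so they entered the test only through their level on Glu and had to differ; all 11 rose, as did 535 of the 588 tested genes of such a level (91.0%). The 11 were CRK6, CRK7, CRK14, CRK15, CRK20, CRK23, CRK24, CRK31, CRK36, CRK37 and CRK39. Of the 25 members at 1 RPKM or more on NH4NO3, 17 rose and 7 fell (68.0% and 28.0%), against 33.3% and 37.9% of the 19444 tested genes at that level. At 10 RPKM or more on NH4NO3, 6 of 11 members were higher and 5 lower (54.55% and 45.45%). Of all tested genes at that level 30.65% were higher and 44.94% lower. Over all 41 members the summed level was 609, 578 and 614 RPKM in the Glu libraries, against 307, 299 and 320.3 RPKM in the NH4NO3 libraries.

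**Figure D1:**
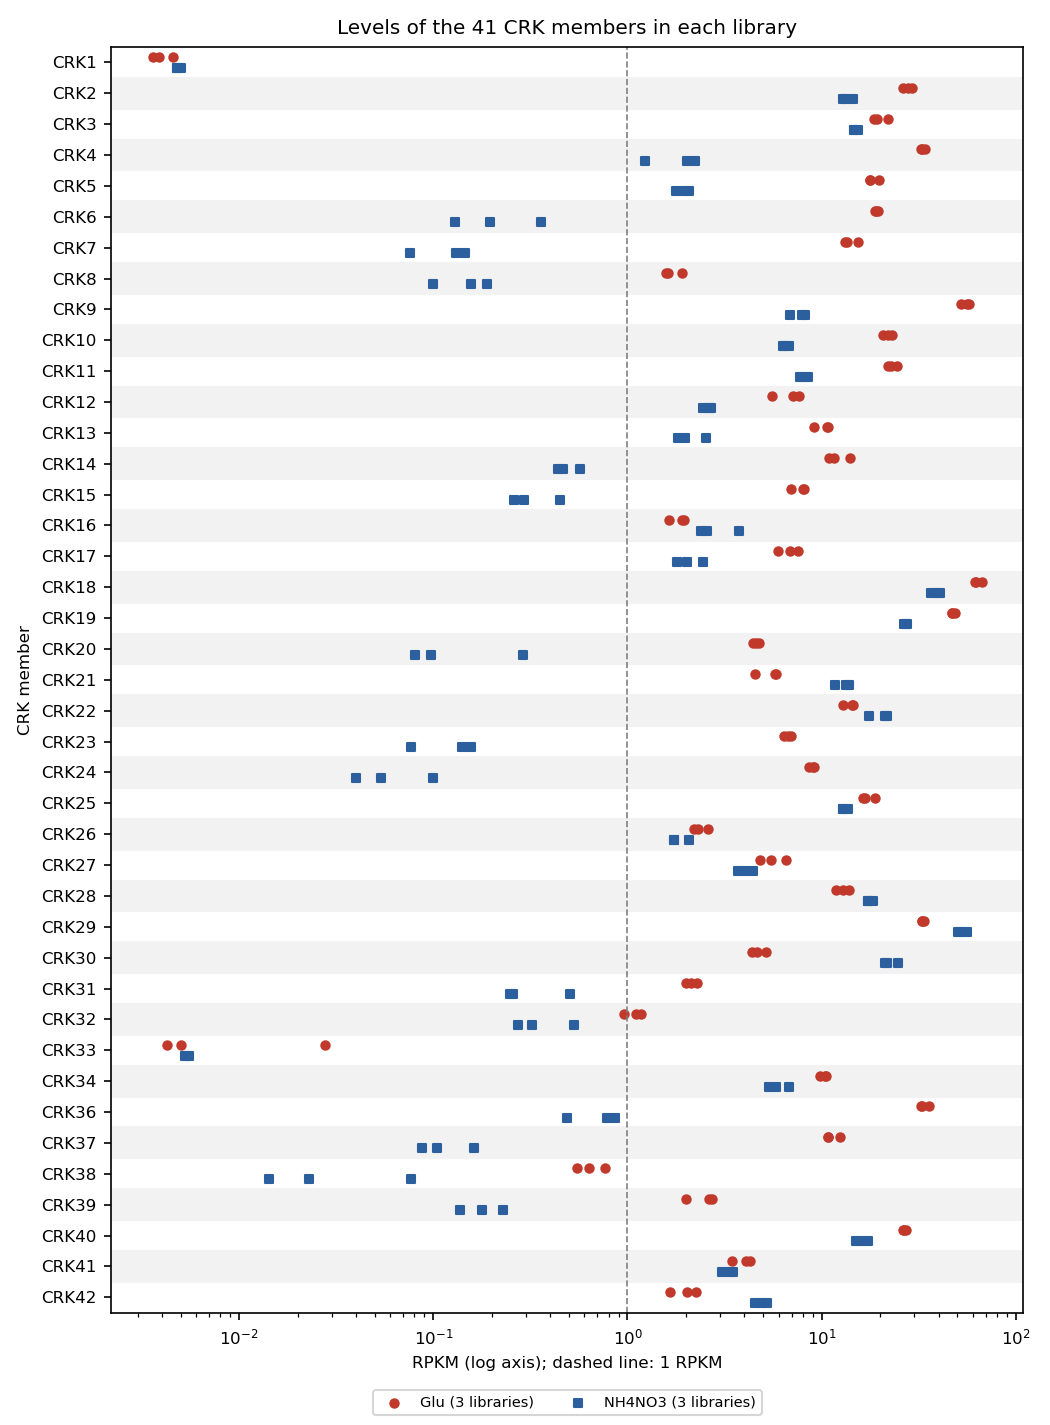
RPKM of each of the 41 CRK members in each library on a log axis, with the 3 Glu libraries as red circles above the 3 NH4NO3 libraries as blue squares and a dashed line at 1 RPKM. Libraries with no reads (all 6 for CRK1 and all but 1 for CRK33) are drawn at the value that the deposited table gives for 0 reads; 38 members reach a mean of 1 RPKM on Glu and 25 on NH4NO3.

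The markers of the labelled tissue were present, and they differed between the groups. All 7 shoot markers, among them RBCS1A, LHCB1.3 and FAMA, fell, with summed levels of 10667 to 12163 RPKM on Glu and 24617 to 26317 RPKM on NH4NO3. Of the 7 root markers 5 rose, PYK10 fell and WER did not pass, with sums of 1573 to 1729.5 RPKM on Glu and 2165 to 2633 RPKM on NH4NO3; PYK10 made up most of the sum. No shoot or root marker was at 0, and the floral genes AG and AP3 were at 0.149 and 0.169 RPKM on Glu and at 0.348 and 0.227 RPKM on NH4NO3. The part of tissue make-up in the CRK values was not tested, and fewer cells of a type and less RNA per cell cannot be told apart in whole seedlings.

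The largest rise on the log2(RPKM + 1) scale was that of CRK36 (AT4G04490), which is known to associate with the cytoplasmic immune kinase BIK1. CRK36 had 32.5, 33.0 and 35.8 RPKM in the Glu libraries, against 0.783, 0.486 and 0.859 RPKM in the NH4NO3 libraries. It was thus near silent on NH4NO3 and among the upper members of the family on Glu. The means differed 47.6-fold, less than those of CRK24 (138-fold). On the log2 scale the fold change was 4.35 ± 0.09 (SE, limma adjusted p = 2.6e-08). Its neighbour CRK37 (AT4G04500) had 10.8, 10.8 and 12.4 RPKM on Glu, against 0.104, 0.088 and 0.163 RPKM on NH4NO3, where it had 34 reads in all. The log2 fold change of CRK37 was 3.46 ± 0.08 (SE, limma adjusted p = 4.1e-08).

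In the array the largest rises were those of CRK6 and CRK7, a pair known to protect against reactive oxygen outside the cell. CRK6 (AT4G23140) had 19.6, 18.8 and 19.1 RPKM on Glu, against 0.196, 0.130 and 0.357 RPKM on NH4NO3. The deposited table gives 16.6% as its largest share of multiply mapped reads, the highest of the family. CRK7 (AT4G23150), with no multiply mapped reads, had 13.5, 13.1 and 15.4 RPKM on Glu, against 0.0755, 0.131 and 0.145 RPKM on NH4NO3. The log2 fold changes were 4.04 ± 0.08 for CRK6 (SE, limma adjusted p = 2.3e-08) and 3.74 ± 0.08 for CRK7 (SE, limma adjusted p = 3.0e-08). Both genes were tested only through their level on Glu and had to be higher.

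At the far end of the array CRK24 (AT4G23320) had the largest ratio of means, 138-fold. It had 8.59, 9.16 and 9.0 RPKM on Glu, against 0.0539, 0.0401 and 0.0994 RPKM on NH4NO3, where it had 11 reads in all. Its log2 fold change was 3.22 ± 0.08 (SE, limma adjusted p = 3.8e-08). CRK23 (AT4G23310), next to it, had 6.41, 6.97 and 6.74 RPKM on Glu, against 0.0771, 0.157 and 0.141 RPKM on NH4NO3, with a log2 fold change of 2.78 ± 0.08 (SE, limma adjusted p = 8.4e-08). CRK14 (AT4G23220), near the middle, had 14.0, 10.9 and 11.6 RPKM on Glu, against 0.466, 0.441 and 0.567 RPKM on NH4NO3. Its log2 fold change was 3.14 ± 0.10 (SE, limma adjusted p = 1.2e-07). In each of these genes the lowest Glu library lay far above the highest NH4NO3 library. All of them were tested only through their level on Glu and had to be higher.

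CRK4 (AT3G45860), on chromosome 3, rose nearly as much as the top genes of the array on the log2(RPKM + 1) scale. It had 32.6, 32.7 and 34.0 RPKM on Glu, against 1.23, 2.23 and 2.01 RPKM on NH4NO3, with a log2 fold change of 3.61 ± 0.13 (SE, limma adjusted p = 2.0e-07). By ratio of means CRK4 rose less, 18.1-fold, against 84.1-fold for CRK6, 119-fold for CRK7 and 138-fold for CRK24. Forced expression of CRK4, CRK5, CRK19 or CRK20 is known to cause cell death that resembles the hypersensitive response. All 4 rose, by unequal amounts. CRK5 (AT4G23130) had 17.8, 17.8 and 19.7 RPKM on Glu, against 2.07, 1.78 and 1.96 RPKM on NH4NO3. CRK20 (AT4G23280) had 4.58, 4.44 and 4.73 RPKM on Glu, against 0.0976, 0.0803 and 0.291 RPKM on NH4NO3. The ratio of CRK20 was 29.4-fold, and 51.6-fold without NH4NO3 replicate 3. CRK19 (AT4G23270), already abundant, had 47.0, 46.8 and 48.3 RPKM on Glu, against 27.2, 27.6 and 26.4 RPKM on NH4NO3, a ratio of 1.75.

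**Figure D2:**
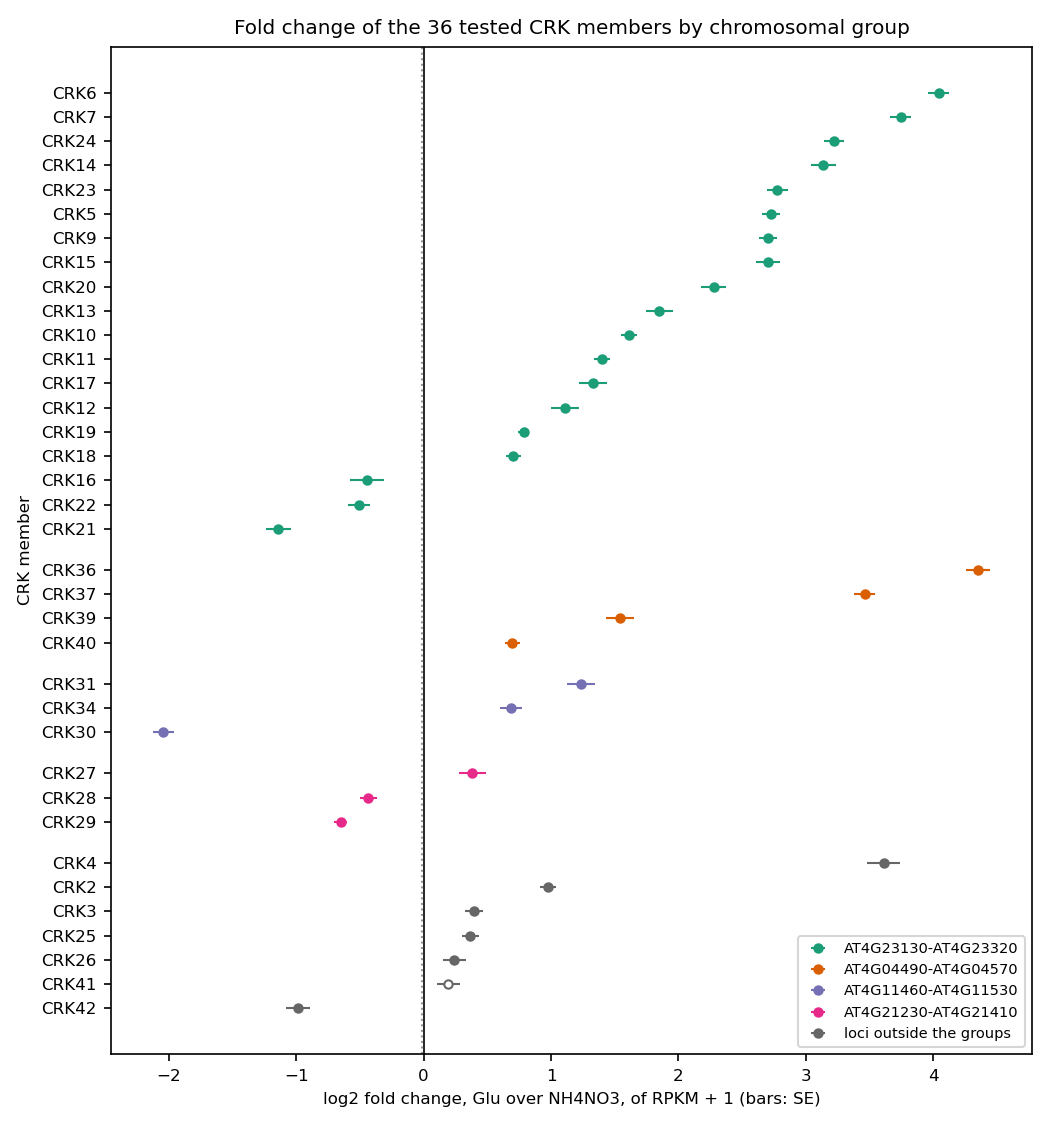
Log2 fold change, Glu over NH4NO3, of RPKM + 1 with its SE for the 36 tested members, grouped by place on the chromosome; the open circle (CRK41) did not pass and the dotted line is the median of all tested genes. Values run from -2.04 for CRK30 to 4.35 for CRK36.

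Promoters of 4 members are shown because they cover the range of the response: CRK36 and CRK6 with the largest rises, CRK30 with the largest fall and CRK18 with the highest mean level. Each is the 250 bases before the annotated gene start, 5′ to 3′ toward the gene, from the RefSeq TAIR10.1 genome. They lie at chr4:2234690-2234939 (minus strand) for CRK36, chr4:12121119-12121368 (plus strand) for CRK6, chr4:6963271-6963520 (plus strand) for CRK30 and chr4:12170081-12170330 (minus strand) for CRK18. Capitals mark TTGAC on either strand (GTCAA in reverse), the core of the W-box that WRKY transcription factors bind.
CRK36: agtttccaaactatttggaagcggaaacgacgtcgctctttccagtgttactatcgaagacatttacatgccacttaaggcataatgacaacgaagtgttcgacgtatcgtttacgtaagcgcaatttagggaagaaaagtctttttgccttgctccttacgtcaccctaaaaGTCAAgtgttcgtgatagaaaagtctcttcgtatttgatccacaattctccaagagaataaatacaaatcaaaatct
CRK6: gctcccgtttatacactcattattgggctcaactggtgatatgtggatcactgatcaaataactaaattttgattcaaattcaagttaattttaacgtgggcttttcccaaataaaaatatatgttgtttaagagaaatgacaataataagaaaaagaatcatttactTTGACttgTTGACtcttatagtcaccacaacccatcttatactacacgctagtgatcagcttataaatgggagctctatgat
CRK30: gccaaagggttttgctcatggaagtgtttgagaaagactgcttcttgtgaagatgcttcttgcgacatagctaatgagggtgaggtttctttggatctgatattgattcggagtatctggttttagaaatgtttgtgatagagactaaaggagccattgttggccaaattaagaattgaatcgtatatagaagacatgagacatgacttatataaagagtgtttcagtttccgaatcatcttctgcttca
CRK18: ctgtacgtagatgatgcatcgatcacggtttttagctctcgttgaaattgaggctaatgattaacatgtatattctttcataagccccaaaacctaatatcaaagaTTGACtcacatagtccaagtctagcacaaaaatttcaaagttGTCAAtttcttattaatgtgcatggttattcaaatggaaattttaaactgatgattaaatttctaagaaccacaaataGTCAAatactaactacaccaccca
CRK6 holds a pair of cores 82 and 74 bases before the start, CRK36 a single one at 77 bases, CRK18 3 between 144 and 24 bases, and CRK30 none.

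The same search was made in all 41 promoters. A TTGAC core on either strand was found in 30 of the 41 (73.2%), against 44.9% of the 27443 promoters of protein-coding genes of the same length. Of the 19 members at least 2-fold higher on Glu, 17 held one (89.5%) and 12 held 2 or more (63.2%), against 14.1% of all promoters with 2 or more. Of the 9 members that rose by less, 5 held a core, and of the 7 that fell 3 did. The members without a core among the 19 were CRK12 and CRK13. Of the 19, 11 were under 1 RPKM on NH4NO3, so they were tested only through their level on Glu and had to be higher. The motif TGACG, bound by TGA factors, was found on either strand in 11 of the 19, in 1 of the 9 and in 0 of the 7, and in 18.6% of all promoters. Over all 41 members TGACG was found in 13 (31.7%). CRK41, which was tested but did not pass, is in none of these classes and held 4 TTGAC cores and 3 TGACG motifs. The letters TTGACG, where both motifs overlap, stood in 3 of the 19. Not every window lies between genes. The window of CRK16, with 3 cores, is wholly inside the annotated CRK17 gene, and that of CRK28 is wholly inside CRK29. That of CRK15, with 2 cores, runs in part into the annotated CRK16 gene. Overlap of the windows with genes outside the family was not checked. For CRK8, CRK14, CRK15, CRK16, CRK17, CRK27 and CRK33 the annotated start is the coding start. These are matches of letters in 1 window, and array members share descent, so they are given as a description with no test.

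**Figure D3:**
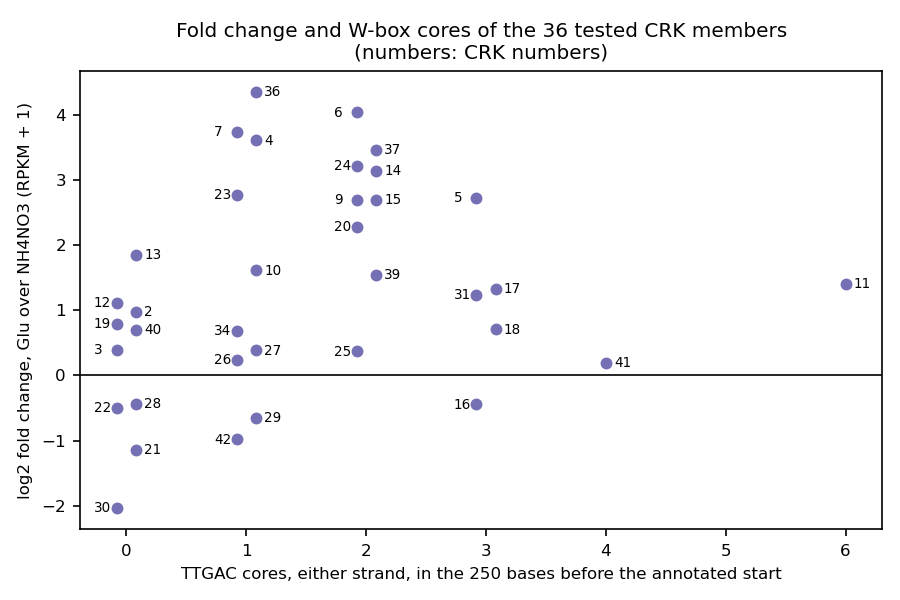
Log2 fold change, Glu over NH4NO3, of RPKM + 1 against the number of TTGAC cores on either strand in the 250 bases before the annotated start, for the 36 tested members (points, numbered). Of the 7 members that fell, 4 have 0 cores. CRK11, with 6, has a log2 fold change of 1.40, and CRK41, with 4, has one of 0.19 and did not pass. The windows of CRK16 and CRK28 lie inside the annotated genes CRK17 and CRK29, and that of CRK15 runs in part into CRK16.

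Most of the large rises lay in the tandem array. Of its 20 genes 19 were tested, and 16 rose and 3 fell; outside the array 17 of 21 were tested, and 12 rose, 4 fell and CRK41 did not pass. The median log2 fold change was 1.85 in the array and 0.40 outside it, and 14 array members and 5 others were at least 2-fold higher. Among all tested genes 35.0% rose, 36.8% fell and 9.52% were at least 2-fold higher. Of the tested members, 7 in the array and 4 outside it were under 1 RPKM on NH4NO3 and had to be higher. All of these were among the members at least 2-fold higher. Among members at 1 RPKM or more on NH4NO3, 9 rose and 3 fell of 12 in the array, and 8 rose and 4 fell of 13 outside it, with median log2 fold changes of 1.22 and 0.37. Of all tested genes at that level 33.3% rose and 37.9% fell. The summed level of the array was 355, 334 and 359 RPKM in the Glu libraries, against 135, 128 and 139.9 RPKM in the NH4NO3 libraries. Members outside the array summed to 254, 244 and 255 RPKM on Glu and to 172, 171 and 180.4 RPKM on NH4NO3. Neighbouring genes share sequence and place and are not replicates, so no test was made between array and rest.

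Along the array the response was not even. CRK9 (AT4G23170), which the annotation lists only as kinase-related and with a coding length of 798 bases, had 56.3, 52.5 and 57.2 RPKM on Glu, against 6.89, 7.88 and 8.24 RPKM on NH4NO3. This made it the second most abundant member on Glu. CRK10 (AT4G23180) had 23.1, 20.6 and 21.9 RPKM on Glu, against 6.30, 6.37 and 6.78 RPKM on NH4NO3. CRK11 (AT4G23190), known to be induced by salicylic acid and oxidants, had 24.3, 22.7 and 21.9 RPKM on Glu, against 8.46, 7.69 and 8.07 RPKM on NH4NO3. CRK10 and CRK11 overlap by 32 bases on opposite strands in TAIR10.1. CRK13 (AT4G23210), whose overexpression is known to raise salicylic acid and resistance to Pseudomonas, had 10.8, 9.14 and 10.7 RPKM on Glu, against 1.98, 1.81 and 2.55 RPKM on NH4NO3; up to 5.62% of its reads were multiply mapped.

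The remaining array members that rose did so by unequal amounts, all with separate groups. CRK12 (AT4G23200) had 7.67, 5.52 and 7.15 RPKM on Glu, against 2.68, 2.44 and 2.62 RPKM on NH4NO3. CRK15 (AT4G23230), which was near silent on NH4NO3, had 7.99, 6.92 and 8.08 RPKM on Glu, against 0.261, 0.292 and 0.448 RPKM on NH4NO3. In both genes all Glu libraries lay above all NH4NO3 libraries, by far more in CRK15. CRK15 was tested only through its level on Glu and had to be higher. CRK17 (AT4G23250), annotated as an embryo-defective locus, had 7.57, 5.95 and 6.85 RPKM on Glu, against 2.02, 1.80 and 2.46 RPKM on NH4NO3. CRK18 (AT4G23260) had the highest mean of the family on Glu, with 62.2, 61.6 and 66.9 RPKM, against 39.0, 36.4 and 40.5 RPKM on NH4NO3. CRK18 and CRK19, the array members most abundant on NH4NO3, had the smallest rises of the array, with log2 fold changes of 0.71 and 0.79.

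The 3 array members that fell, CRK16 and the adjacent CRK21 and CRK22, lay between rising neighbours. CRK21 (AT4G23290) had 5.78, 4.54 and 5.74 RPKM on Glu, against 13.4, 11.7 and 13.9 RPKM on NH4NO3, with a log2 fold change of -1.14 ± 0.10 (SE, limma adjusted p = 1.7e-05). CRK22 (AT4G23300), next to it, had 14.4, 12.9 and 14.3 RPKM on Glu, against 21.2, 17.5 and 21.7 RPKM on NH4NO3, with a log2 fold change of -0.50 ± 0.09 (SE, limma adjusted p = 0.00098). Up to 6.08% of the reads of CRK22 were multiply mapped. CRK16 (AT4G23240) had 1.91, 1.95 and 1.64 RPKM on Glu, against 2.40, 3.74 and 2.55 RPKM on NH4NO3, with a log2 fold change of -0.44 ± 0.13 (SE, limma adjusted p = 0.016). The call of CRK16 was lost without Glu replicate 3 (limma adjusted p = 0.056) and when genes of any level were tested (limma adjusted p = 0.059). CRK16 also shares 1190 bases on the same strand with CRK17 in TAIR10.1, so reads of the pair may be split with error. The deposited length of CRK16 is 1.059 kb, against a coding length of 1989 bases in TAIR10.1, so the model that was counted is another one and its overlap is not known.

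Beside the array the tested loci changed little, and inside it a pseudogene rose with its neighbours. Of the 10 loci on each side, 5 before and 2 after were tested, with log2 fold changes of 0.03 to 0.27 and of 0.01 and 0.06. Of these 7, IQD22 (AT4G23060) and AT4G23050 rose, each with a ratio of means of 1.22, and the other 5 did not pass. With library totals made equal, 6 of the 8 tested neighbours, the locus inside the array included, were called higher, against 3 on the authors' scale. AT4G23215, annotated as a transcribed pseudogene of a CRK between CRK13 and CRK14, had 43.2, 37.5 and 38.7 RPKM on Glu, against 1.62, 1.43 and 1.28 RPKM on NH4NO3. Its log2 fold change of 4.06 ± 0.08 (SE, limma adjusted p = 2.0e-08) was within 1 SE of that of CRK6, and the deposited table gives it no multiply mapped reads.

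**Figure D4:**
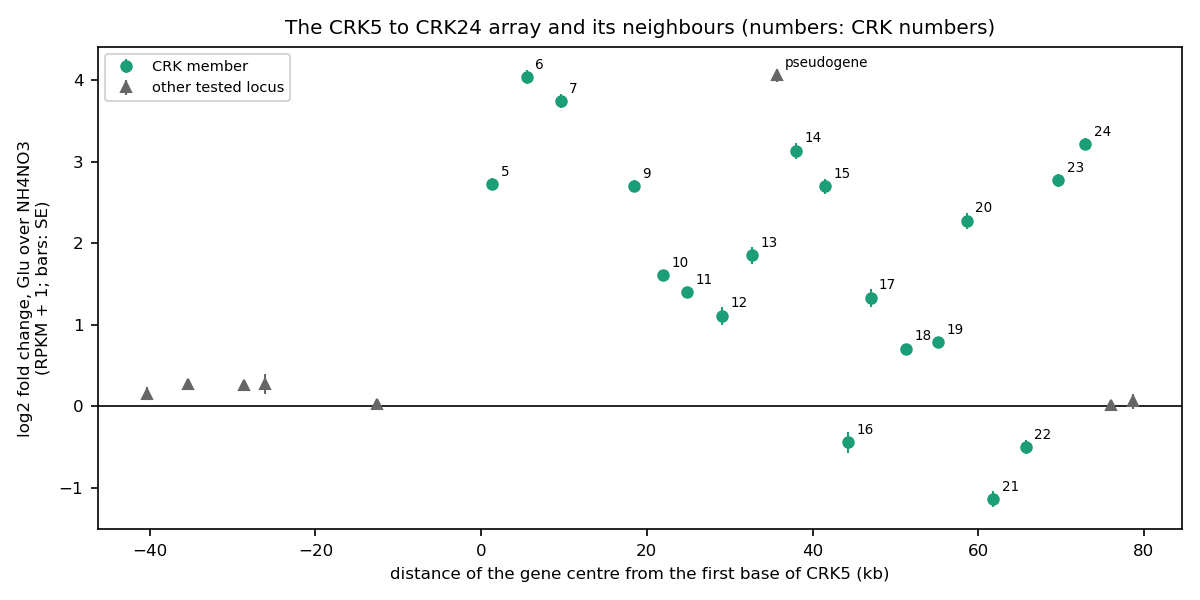
Log2 fold change with its SE against distance in kb from the first base of CRK5 for the tested members of the array (green circles, numbered) and for other tested loci in and around it (grey triangles). Array members run from -1.14 (CRK21) to 4.04 (CRK6), while the flanking loci lie between 0.01 and 0.27.

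Close relatives did not always change in the same direction. Among 35 members with an alignable relative, the closest relative shared 68.0% to 91.7% of aligned coding bases (median 84.7%). CRK19 and CRK20 shared 90.5% of aligned coding bases, and their log2 fold changes were 0.79 and 2.28. CRK28 and CRK29 shared 86.6% and both fell. CRK22 shared 81.7% with CRK13, its closest relative, and fell while CRK13 rose; both had multiply mapped reads. CRK16 shared 85.5% with CRK24 over an aligned stretch of 69.8% of the shorter gene, and fell while CRK24 rose. As given above, the call of CRK16 was lost under some alternatives. Its counted model also differs from the one aligned here, so CRK16 is a weak example. Among pairs with enough of the shorter gene aligned to count as relatives, CRK8 and CRK9 were the closest at 91.7%. CRK16 and CRK17, whose models overlap, shared 100% over 776 aligned bases. That stretch was 39.0% of the shorter gene, too little for the pair to count.

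In the group of CRK36 to CRK40 the 4 tested genes rose. CRK36, CRK37 and CRK39 were under 1 RPKM on NH4NO3, so these 3 were tested only through their level on Glu and had to be higher; CRK38 was not tested. CRK39 (AT4G04540) had 2.71, 2.62 and 2.01 RPKM on Glu, against 0.179, 0.229 and 0.137 RPKM on NH4NO3. CRK40 (AT4G04570), which shares 87.4% of aligned coding bases with CRK39, had 26.7, 26.2 and 27.1 RPKM on Glu, against 15.9, 15.0 and 17.4 RPKM on NH4NO3. CRK39 was near silent on NH4NO3 and CRK40 was not. CRK38 (AT4G04510) was below the filter, at 0.634, 0.549 and 0.769 RPKM on Glu, against 0.0228, 0.0143 and 0.0769 RPKM on NH4NO3.

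The largest fall of the family came from CRK30 (AT4G11460). It had 4.63, 4.37 and 5.15 RPKM on Glu, against 21.2, 21.7 and 24.8 RPKM on NH4NO3, or 4.78-fold lower on Glu. The log2 fold change was -2.04 ± 0.08 (SE, limma adjusted p = 3.1e-07). The genes next to it did not follow. CRK31 (AT4G11470) had 2.28, 2.01 and 2.13 RPKM on Glu, against 0.248, 0.258 and 0.507 RPKM on NH4NO3, and rose. CRK34 (AT4G11530) had 10.5, 9.75 and 10.4 RPKM on Glu, against 6.81, 5.82 and 5.37 RPKM on NH4NO3, and rose as well. CRK32 (AT4G11480) was below the filter, at 1.18, 0.959 and 1.11 RPKM on Glu, against 0.529, 0.273 and 0.321 RPKM on NH4NO3.

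CRK28 and CRK29, which are known to associate with each other, fell together. CRK28 (AT4G21400), also a partner of the co-receptor BAK1, had 12.8, 13.9 and 11.8 RPKM on Glu, against 17.3, 17.4 and 18.3 RPKM on NH4NO3. CRK29 (AT4G21410), the most abundant member on NH4NO3, had 32.8, 32.9 and 33.7 RPKM on Glu, against 50.4, 51.4 and 55.8 RPKM on NH4NO3. The groups did not overlap for either gene. The log2 fold changes were -0.43 ± 0.07 for CRK28 (SE, limma adjusted p = 0.00046) and -0.65 ± 0.05 for CRK29 (SE, limma adjusted p = 1.0e-05). The models of these genes overlap by 470 bases on the same strand in TAIR10.1. CRK27 (AT4G21230) had 5.46, 4.81 and 6.56 RPKM on Glu, against 4.04, 4.41 and 3.70 RPKM on NH4NO3, and rose (limma adjusted p = 0.012, and 0.053 with all genes tested).

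Among the members outside the groups on chromosome 4, CRK2 (AT1G70520) is known to bind and phosphorylate RBOHD, the NADPH oxidase of the immune oxidative burst. It had 29.0, 26.3 and 27.8 RPKM on Glu, against 14.5, 13.4 and 12.9 RPKM on NH4NO3, a ratio of 2.04. CRK3 (AT1G70530), next to it on chromosome 1, had 22.0, 19.3 and 18.7 RPKM on Glu, against 14.7, 14.6 and 15.4 RPKM on NH4NO3. CRK25 (AT4G05200) had 18.9, 16.6 and 16.4 RPKM on Glu, against 13.7, 12.8 and 12.9 RPKM on NH4NO3. Both rose, by 1.34-fold and 1.31-fold.

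CRK42 (AT5G40380) was the remaining member that fell. It had 2.02, 1.66 and 2.25 RPKM on Glu, against 4.89, 5.22 and 4.52 RPKM on NH4NO3, with a log2 fold change of -0.98 ± 0.10 (SE, limma adjusted p = 3.4e-05). CRK26 (AT4G38830) had 2.19, 2.31 and 2.58 RPKM on Glu, against 2.07, 1.73 and 1.74 RPKM on NH4NO3, and passed narrowly (limma adjusted p = 0.041). That call was lost with all genes tested (limma adjusted p = 0.057), with the replicate number as a block (limma adjusted p = 0.077) and without Glu replicate 2 or 3 or NH4NO3 replicate 2 or 3 (limma adjusted p = 0.078, 0.14, 0.10 and 0.10). CRK41 (AT4G00970) had 4.07, 3.44 and 4.29 RPKM on Glu, against 3.05, 3.49 and 3.39 RPKM on NH4NO3, with groups that overlap (limma adjusted p = 0.085); it passed with equal totals (limma adjusted p = 0.020) and without Glu replicate 2 (limma adjusted p = 0.031).

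The 5 members below the filter were CRK1, CRK8, CRK32, CRK33 and CRK38. CRK1 had 0 reads in all 6 libraries, and CRK33 (AT4G11490) had 3 reads in 1 Glu library and none elsewhere. CRK8 (AT4G23160), of the array, had 1.58, 1.91 and 1.62 RPKM on Glu, against 0.190, 0.0994 and 0.157 RPKM on NH4NO3, with up to 10.2% of its reads multiply mapped. When every gene of the table was tested, CRK8, CRK32 and CRK38 were called higher (limma adjusted p = 0.00013, 0.0032 and 0.00057).

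Other immune receptors and their partners mostly rose. Of 14 pattern receptors, co-receptors and genes of the oxidative burst 12 rose and none fell, and FLS2 and PEPR2 did not pass; the median log2 fold change was 0.71. Among all tested genes 35.0% rose and 36.8% fell. The adaptor kinase SOBIR1 averaged 199 ± 24.6 RPKM on Glu and 32.1 ± 1.78 RPKM on NH4NO3 (SD, n = 3 each, as for the means that follow). BIR1, a kinase that restrains immunity, averaged 59.1 ± 3.36 RPKM on Glu and 21.4 ± 0.392 RPKM on NH4NO3. The chitin co-receptor CERK1 averaged 39.8 ± 0.933 RPKM on Glu and 20.3 ± 0.862 RPKM on NH4NO3, and LORE, a receptor of bacterial hydroxy fatty acids, 19.9 ± 1.42 RPKM on Glu and 8.73 ± 0.435 RPKM on NH4NO3. Among the partners named above, BAK1 averaged 37.6 ± 1.74 RPKM on Glu and 25.1 ± 0.66 RPKM on NH4NO3 and RBOHD 31.6 ± 1.25 RPKM on Glu and 14.7 ± 1.82 RPKM on NH4NO3, while BIK1 rose little, at 28.6 ± 0.44 RPKM on Glu and 25.9 ± 1.07 RPKM on NH4NO3.

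All 13 genes of salicylic acid synthesis and response rose, against 35.0% of all tested genes. Their median log2 fold change was 2.22. The pathogenesis-related gene PR5 averaged 38.1 ± 0.623 RPKM on Glu and 2.84 ± 0.14 RPKM on NH4NO3, and PR2 114 ± 10.6 RPKM on Glu and 0.838 ± 0.297 RPKM on NH4NO3. PR2 was tested only through its level on Glu and had to be higher. PBS3, of salicylic acid synthesis, averaged 42.3 ± 1.45 RPKM on Glu and 3.34 ± 0.489 RPKM on NH4NO3. WRKY70, a transcription factor of salicylic acid responses, averaged 259.5 ± 14.8 RPKM on Glu and 21.2 ± 3.27 RPKM on NH4NO3.

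Other genes with a DUF26 domain, and other receptor kinases, gave a more mixed picture. Of the 8 plasmodesmata-located proteins (PDLPs), which share the DUF26 domain and lie at the channels between cells, 3 rose, 2 fell and 3 did not pass. The shares of 37.5% higher and 25% lower compare with 35.0% and 36.8% of all tested genes. PDLP5 averaged 34.4 ± 2.24 RPKM on Glu and 13.3 ± 1.47 RPKM on NH4NO3, and PDLP4 3.73 ± 0.108 RPKM on Glu and 2.16 ± 0.157 RPKM on NH4NO3. PDLP3 and PDLP2 fell, with 14.0 ± 0.515 RPKM on Glu and 28.4 ± 2.27 RPKM on NH4NO3 for PDLP3 and 6.63 ± 0.641 RPKM on Glu and 10.7 ± 0.863 RPKM on NH4NO3 for PDLP2. The 29 genes annotated as cysteine-rich repeat secretory or DUF26 proteins were all below the filter, with no group mean above 0.0463 RPKM. These 29 were found by product name alone and domains were not checked, so secretory DUF26 genes under other product names are not covered. Of 109 other genes annotated as receptor-like or receptor kinases 86 were tested, and 44 rose and 20 fell (51.2% and 23.3%), with a median log2 fold change of 0.25. Those with the smallest p included FRK1, a flagellin-induced kinase, at 25.4 ± 1.66 RPKM on Glu and 0.921 ± 0.195 RPKM on NH4NO3, and RLK1, at 14.1 ± 0.631 RPKM on Glu and 0.33 ± 0.0347 RPKM on NH4NO3. HAE, a receptor of organ abscission, had 30.5 ± 1.27 RPKM on Glu and 6.02 ± 0.114 RPKM on NH4NO3, and RK1 7.06 ± 0.554 RPKM on Glu and 0.104 ± 0.0468 RPKM on NH4NO3. Of the 86, 10 were under 1 RPKM on NH4NO3 and tested only through their level on Glu, FRK1, RLK1 and RK1 among them; of the other 76, 34 rose and 20 fell. Of all tested genes at 1 RPKM or more on NH4NO3, 33.3% rose and 37.9% fell. Of the 109, 4 are also among the pattern receptors, 1 is PDLP5 and 1 is among the 29 DUF26 genes, where it is annotated as a putative receptor-like kinase. The 109 were matched by product name, and kinase domains were not checked. They include 18 genes named receptor-like protein kinase-related family protein, a subset set apart after its values were seen. This subset holds 9 of the 44 rises and 0 of the 20 falls.

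**Figure D5:**
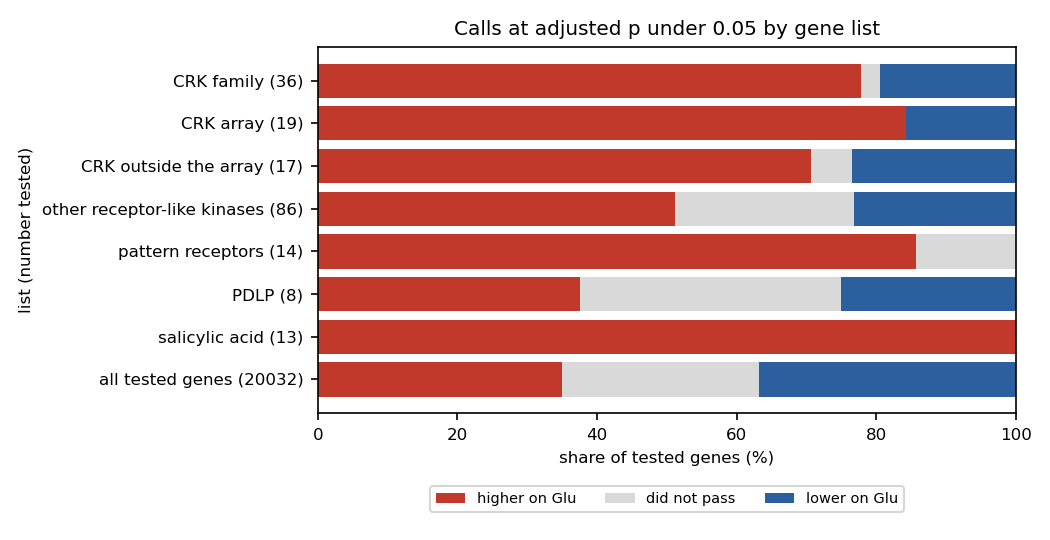
Share of tested genes called higher on Glu (red), not passing (grey) and lower on Glu (blue) for the CRK family, its array and the rest, related lists, and all tested genes, with the number tested in brackets. The CRK family shows 77.8% higher and 19.4% lower, against 35.0% and 36.8% of all tested genes.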

How the data were processed

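Messenger RNA of whole seedlings was measured by RNA-seq in 3 libraries per group (Illumina TruSeq RNA kit, 1 ug of RNA, per the labels' protocols). The deposited values are RPKM that the authors scaled with TMM, per the file's name, for 33602 genes. The submitters' processing notes name the build TAIR10 and the tool SAMtools. Aligner, counter, annotation and strandedness were not given in the sources used here. Gene length in kilobases stands in the deposited table too, as does a fraction for multiply mapped reads, read from its name as the largest ratio. Values times length took steps of whole reads plus 0.5 read, so ratios of genes with few reads are understated; within 0.05 read, 100% of genes without multiply mapped reads and under 1000 reads came out whole, and 96.0% to 96.5% of all genes, which gave the totals above. The test was on log2 values of the deposited RPKM + 1, with limma 3.58.1 in R 4.3.3 and an intensity trend, and was tested on simulated data. Where a fold is not given as log2, it compares mean RPKM.

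Members, lists, tests and the rule for named genes were chosen with earlier results of these data known. All members are accounted for; log2 fold changes with SE are given for the 8 largest rises and the falls, and up to 4 genes per list with the smallest p are named. BAK1, RBOHD, BIK1, FLS2, PEPR2 and the genes named beside the array fall outside that rule and were chosen after their values were seen. The main test treated the samples as unpaired. Same-numbered deviations correlated at 0.10, 0.05 and -0.01 across genes, and unlike-numbered ones at -0.18 to 0.13. Such a check cannot exclude pairing by replicate number. Replicates differed by more than counting noise (chi-square per degree of freedom 10.0 to 14.8). Names, products, overlaps and promoters came from RefSeq TAIR10.1, which matched 97.7% of identifiers. For 5 of the 41 members the deposited length equals that of a TAIR10.1 transcript, so the counted gene models, and with them overlaps and starts, can differ from those used here. Coding sequences were aligned locally, and a relative counted where at least 50% of the shorter was aligned. Alternatives were another pseudocount, filter or scaling, a replicate block, no trend, genes without multiply mapped reads, and each library left out.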

Additional observations from a re-analysis of the deposited data

How the results depend on the processing

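Of the 36 tested members, 35 changed and no direction reversed under any alternative run: pseudocounts of 0.1 and 5 RPKM, no filter, a filter at 5 RPKM, equal totals, genes without multiply mapped reads, a replicate block, no intensity trend, and each library left out. Of 485 member values compared, 474 kept their side of the threshold, 9 lost it (CRK16, CRK26 and CRK27) and 2 gained it (CRK41). With a mean of at least 5 RPKM, 23 members were tested and all 23 changed, 18 of them higher; in the array 12 changed, 10 of them higher. That fall in number comes from fewer genes tested. With equal totals 6 array neighbours changed, all higher, against 3. With each library left out, the count of changed members ranged from 33 to 35, with 27 to 28 higher and 6 to 7 lower, and that of all genes from 13251 to 13975. With the replicate block 34 members and 14194 genes passed, against 35 and 14390; the block changed no other member's call than that of CRK26. Genes under about 1 RPKM on NH4NO3 rest on few reads, which limits their ratios: without NH4NO3 replicate 3 CRK38 was 35.1-fold higher, against 17.1-fold.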

Other observations

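Among the genes annotated as receptor-like or receptor kinases, those whose product name is receptor-like protein kinase-related family protein were set apart after their values were seen. Of 18 such genes, PDLP5 among them, 10 were tested, 4 of them only through their level on Glu, since they were under 1 RPKM on NH4NO3. Because of this choice nothing is read from their count. AT3G22060 averaged 56.8 RPKM on Glu and 15.1 RPKM on NH4NO3, and AT5G48540 averaged 31.1 and 10.6 RPKM. AT1G61750 averaged 1.03 RPKM on Glu and 1.40 RPKM on NH4NO3 and did not pass. AT5G41280, AT5G41290 and AT5G41300, neighbours on chromosome 5, averaged 6.08, 2.13 and 5.51 RPKM on Glu and 0.269, 0.491 and 0.845 RPKM on NH4NO3. These neighbours were tested only through their level on Glu and had to be higher. AT4G11521, which lies among CRK30 to CRK34 by its identifier, averaged 6.06 RPKM on Glu and 3.15 RPKM on NH4NO3. The other 8 genes were below the filter on level.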
